A study of Mus musculus with 34 samples.

Results

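JFD00822 (2-phenylquinolin-4-ol) is a drug-like small molecule from the Maybridge collection, with no known target, that was carried forward from a screen in mouse Neuro-2A (N2A) cells as an inhibitor of a neuronal microexon. N2A cells are a neuroblastoma line that grows in culture and shows features of immature sympathetic neurons. RNA-seq of cells treated with JFD00822, labelled Maybridge_67_G04, was compared here with RNA-seq of cells that received the solvent dimethyl sulfoxide (DMSO) alone, for all classes of splicing event and for gene expression. The comparison used 4 of the 34 polyA RNA libraries of the series, which were 1 library of cells given JFD00822 at 5 µM and the 3 DMSO libraries A, B and C, all after 24 h and in 0.4% DMSO. The other 30 libraries came from 26 further compounds, each compared with the same DMSO libraries. Because JFD00822 was sequenced once, every value given for it describes that library, and nothing in the labels says whether the DMSO libraries came from separate cultures. The study describes its DMSO controls as biological replicates, but names fewer of them than there are DMSO libraries. An exact permutation test of 1 against 3 libraries cannot give a one-sided p below 0.25.

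The JFD00822 library held 26462263 reads over the exon-exon junctions of annotated introns, and DMSO A, B and C held 40613524, 35566944 and 20013522, within the range of 17702718 to 40613524 over the series. Of 14 neuroblast marker genes, 13 were above 5 RPKM (reads scaled to transcript length and library size) with DMSO or JFD00822. None of 16 markers of immune, fibroblast, endothelial, epithelial, glial, blood, liver or heart cells passed that level. The highest of those markers reached 1.93 RPKM in the authors' merged DMSO value and 2.46 RPKM with JFD00822, and 7 and 4 of the 16 were listed at 0.

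Cassette exons are exons that are either kept in the mRNA or skipped together with the introns on both sides. Microexons are the shortest of them, here up to 27 nt, and many are included mainly in neurons, where the splicing activator Srrm4 (nSR100) recruits the splicing machinery to exons too short to be recognised easily. Their inclusion usually keeps the reading frame and adds a few residues to proteins of the synapse, the cytoskeleton and vesicle transport. Retained introns are introns left in a polyadenylated transcript. Inclusion is given as percent spliced in (PSI), the share of transcripts that contain the exon or intron.

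Of the microexons below, Macf1, Celsr3 and Mtss1 are shown as examples of the changes called with JFD00822. They do not follow the order of size, since Sfxn5 (-18.2 points) and Fry (24.5 points) are not shown. The microexons of 2410002O22Rik, Sh3glb2, Eif4g1, Sh3glb1 and Agrn are shown for their read coverage, and the last 2 because they served to test compounds in the screen. Each is shown 5′ to 3′ in GENCODE vM21 transcripts (GRCm38), with the microexon in capitals and 15 bases of each neighbouring exon in lower case, and all lie in coding sequence. The exons are at chr4:123364057-123364074 (minus strand, Macf1), chr9:108838760-108838774 (plus, Celsr3), chr13:104152165-104152182 (minus, 2410002O22Rik, annotated as Trappc13), chr2:30346059-30346073 (minus, Sh3glb2), chr16:20674786-20674806 (plus, Eif4g1), chr3:144699854-144699877 (minus, Sh3glb1), chr15:58964497-58964508 (minus, Mtss1), chr4:156169546-156169557 (minus, Agrn), chr3:88161781-88161801 (plus, Mef2d) and chr2:156015377-156015391 (plus, Ergic3).
Macf1: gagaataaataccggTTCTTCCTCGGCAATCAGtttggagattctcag
Celsr3: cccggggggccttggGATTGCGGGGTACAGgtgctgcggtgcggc
2410002O22Rik: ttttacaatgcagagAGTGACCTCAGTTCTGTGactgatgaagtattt
Sh3glb2: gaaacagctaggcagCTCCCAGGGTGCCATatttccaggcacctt
Eif4g1: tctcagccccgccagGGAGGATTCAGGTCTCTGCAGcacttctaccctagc
Sh3glb1: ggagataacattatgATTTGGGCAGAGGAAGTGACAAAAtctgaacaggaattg
Mtss1: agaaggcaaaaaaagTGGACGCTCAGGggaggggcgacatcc
Agrn: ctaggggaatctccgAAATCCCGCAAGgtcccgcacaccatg
Mef2d: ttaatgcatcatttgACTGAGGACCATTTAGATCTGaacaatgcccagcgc
Ergic3: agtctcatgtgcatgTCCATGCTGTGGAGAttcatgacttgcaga

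The broadest difference between the JFD00822 library and DMSO was skipping of cassette exons longer than 27 nt. An event was called when its PSI differed from the DMSO mean by 10 points or more and the posterior probability of a difference in that direction, from the reads of each library, was above 0.95. By this rule 629 of 57596 cassette exons were lower with JFD00822 (1.09%) and 114 were higher (0.198%). Of 607 microexons, 17 were lower (2.80%) and 5 were higher (0.824%). Intron retention was called higher for 257 of 87400 introns (0.294%) and lower for 50 (0.0572%). Alternative 5′ or 3′ splice site use was called changed for 371 of 24038 events (1.54%).

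The same rule gave calls between DMSO libraries, when each was set against the other 2. These comparisons called 238, 242 and 293 cassette exons lower (0.400%, 0.408% and 0.526%) and 191, 208 and 169 higher. Against any 2 of the 3 DMSO libraries, the JFD00822 library had 717 to 738 cassette exons called lower. For microexons the DMSO comparisons gave 9, 6 and 8 lower (1.42%, 0.939% and 1.36%) and 9, 8 and 5 higher. Introns called higher numbered 118, 150 and 221, the largest count being that of DMSO C, the DMSO library with the fewest reads, and introns called lower numbered 164, 119 and 70. Splice site events called changed numbered 361, 351 and 309 between DMSO libraries, 1.45%, 1.41% and 1.35% of those tested. The DMSO comparisons used 2 control libraries each, while the JFD00822 counts in the paragraph above used 3. Against any 2 of the DMSO libraries, more splice site events were called with JFD00822 than in each of these comparisons.

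**Figure D1:**
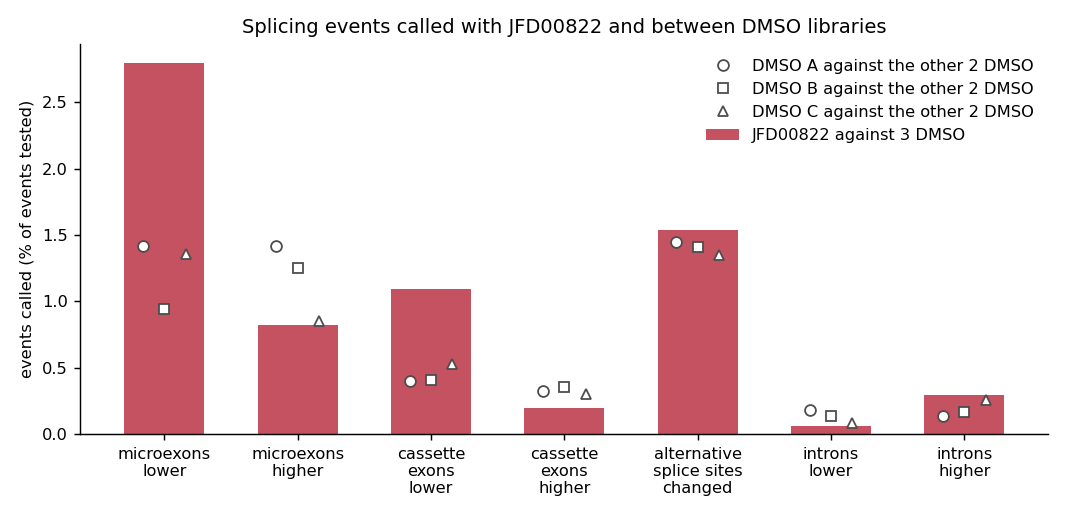
Share of the events tested that were called, by class of event and direction. Bars are the JFD00822 library against the 3 DMSO libraries and open symbols are each DMSO library against the other 2. The JFD00822 bar is above all DMSO symbols for microexons lower (2.80%), cassette exons lower (1.09%), introns higher (0.294%) and, by a small margin, alternative splice sites (1.54%), and below them for the other 3 categories. Bars and symbols differ in the number of control libraries. Against 2 DMSO libraries, more events were called with JFD00822 in every category shown than the bars give.

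Among the 27 compounds, each set against the same DMSO libraries, JFD00822 came 7th by the share of cassette exons called lower and last by the share called higher. By the share of microexons called in either direction it came 26th, with 3.62% against a median of 9.02% over the compounds. It came 10th for microexons called lower, 11th for introns called higher and 11th for alternative splice sites.

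Of the 17 microexons with lower inclusion, 13 had a length that is a multiple of 3 (76.5%), near the 74.5% of all microexons tested. Their median length was 21 nt, against 15 nt for all microexons tested. Their median PSI was 87.85 in DMSO and 73.42 with JFD00822, and the median change was -14.17 points. Over all microexons tested the median DMSO PSI was 48.36. A value in all 3 DMSO libraries existed for 15 of the 17. Of all 559 microexons tested with 3 DMSO values, called or not, 29.2% lay below the DMSO range with JFD00822 and 12.9% above it.

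Among the microexons called lower, the largest change was in the 14-nt exon of Cdon, a cell surface receptor of the hedgehog pathway, at chr9:35283315-35283328 (mm9). Its PSI was 61.98, 60.83 and 79.76 in DMSO A, B and C, a mean of 67.5 ± 10.6 (SD, n = 3), and 42.55 with JFD00822, over 78 reads. The exon at chr4:123041300-123041317 (mm9) of Macf1, which links microtubules to actin filaments, had PSI values of 91.36, 97.15 and 97.64 in DMSO and 74.41 with JFD00822. For Celsr3, a cadherin of planar cell polarity and axon guidance, the values were 96.55, 96.92 and 100 in DMSO and 82.73 with JFD00822. The DMSO values of the last 2 exons lay close together, and the JFD00822 value lay well below all of them, while the DMSO values of Cdon were spread more widely.

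The DMSO values of the following better covered microexons also lay close together. The 18-nt exon of 2410002O22Rik, which encodes a subunit of the TRAPP vesicle tethering complexes, had PSI values of 52.89, 53.87 and 55.55 in DMSO and 39.20 with JFD00822, over 950 reads. The 21-nt exon of Eif4g1, the scaffold of the translation initiation factor eIF4F, had values of 47.34, 47.54 and 50.21 in DMSO and 37.72 with JFD00822, over 1878 reads. Both endophilin B genes were in the group, with their sequences shown above. Sh3glb2 went from a mean of 98.1 ± 1.54 (SD, n = 3) in DMSO to 86.47 with JFD00822, and Sh3glb1 from 45.1 ± 1.96 (SD, n = 3) to 35.03. Eif4g1 and Sh3glb1 had the smallest changes of the 17 and were named after their values were seen because of their coverage. Without DMSO C the Eif4g1 change was -9.72 points, and without DMSO B or C the Sh3glb1 change was -9.31 and -9.79, just under the limit of 10.

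The remaining microexons with lower inclusion had DMSO means between 37.9 and 91.6 and changes from -18.2 to -11.0 points. In Phf21a, a chromatin reader of the Lsd1 corepressor complex, the 23-nt exon had PSI values of 58.41, 60.07 and 60.42 in DMSO and 44.61 with JFD00822. In Daam1, a formin that nucleates actin filaments, the 27-nt exon had 61.70, 56.09 and 64.38 against 47.15. The same group held the microexons of the ubiquitin ligase Herc4, the Arf regulator Asap2 (4 nt), the microtubule-binding protein Nav1, the mitochondrial carrier Sfxn5, the calmodulin-binding Camta2, Rundc1, and Cpeb4, which binds polyadenylation elements. Cpeb4 and Camta2 had values in 2 DMSO libraries only, and without DMSO A the Camta2 exon was no longer called. Cpeb4, at 23.24 over 185 reads, was the only 1 of the 17 that was lower with JFD00822 than in all libraries of other compounds with a value, of which there were 20. That is 5.88% of the 17. Of the microexons called lower in DMSO A, B and C with a value in 20 or more libraries, 14.3%, 20% and 0% had no lower value in any other library.

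Inclusion was higher for 5 microexons, 4 of which were 9 to 14 nt long. The 9-nt exon of Ppfia2, a liprin of the presynaptic active zone, had PSI values of 15.01, 21.55 and 15.85 in DMSO and 43.87 with JFD00822, over 49 reads. The 12-nt exon of Mtss1, a membrane-bending actin regulator, had 2.19, 0.95 and 3.10 in DMSO and 15.63 with JFD00822. The 12-nt exon of Agrn, the heparan sulfate proteoglycan agrin, had 18.44, 20 and 23.91 against 32.50, and the 14-nt exon of Ccnl1, a cyclin that localises with splicing factors, had 9.08, 8.58 and 4.90 against 19.35. In Fry, measured in DMSO B and C only, the 18-nt exon had 19.92 and 17.06 against 43.00, which was above all 13 libraries of other compounds with a value. The share called in this direction was below that of every comparison between DMSO libraries, but those used 2 control libraries and this one 3. Against 2 DMSO libraries the JFD00822 counts lay within the range of the DMSO comparisons.

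**Figure D2:**
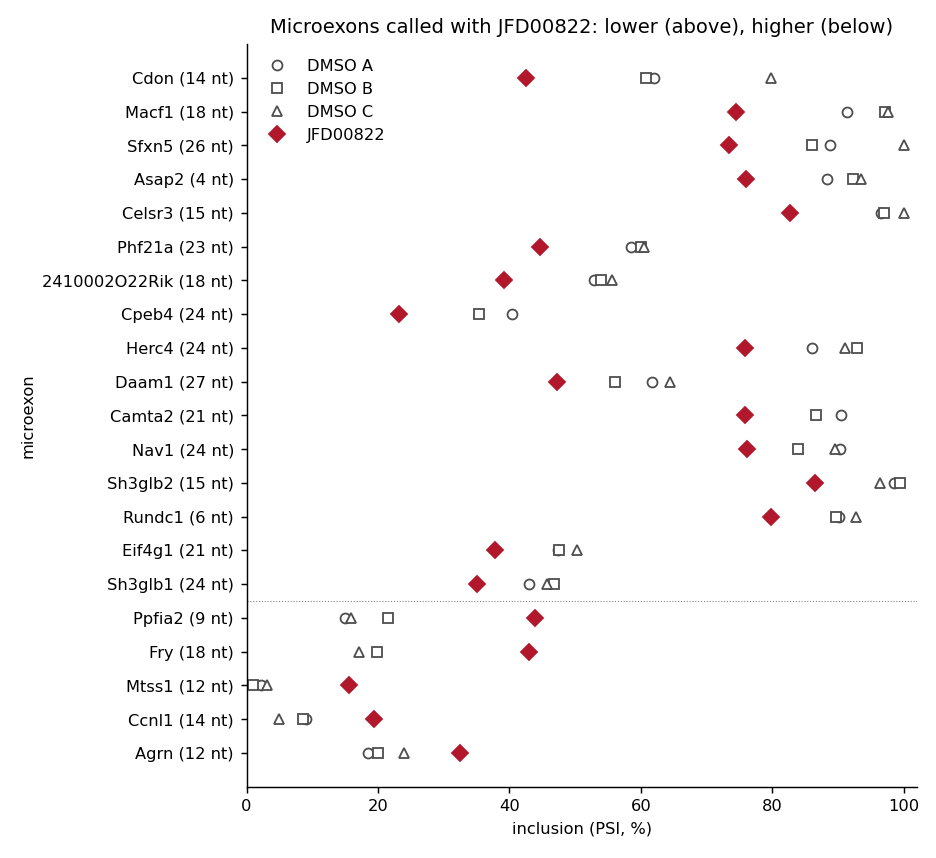
PSI of the microexons called with JFD00822 and reported here, ordered by size of change within each direction, with exon lengths in nt. Open symbols are DMSO A, B and C and filled diamonds the JFD00822 library; missing symbols had too few reads. JFD00822 lies left of all DMSO values for the upper exons, from Cdon at 42.55 to Sh3glb1 at 35.03, and right of them for the lower 5.

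Of the genes whose exons served to test compounds in the screen, none of the 4 microexons given here was called in this library, while 2 longer exons were. The 21-nt exon of the transcription factor gene Mef2d, the exon of the screening reporter, had PSI values of 89.54, 88.72 and 88.68 in DMSO, a mean of 89.0 ± 0.485 (SD, n = 3), and 83.99 with JFD00822. The change of -4.99 points put it under all DMSO values but did not reach the limit for a call. The 21-nt exon of Mast2 went from 43.1 ± 8.49 (SD, n = 3) to 40.83, the 15-nt exon of Ergic3 from 38.5 ± 4.21 (SD, n = 3) to 36.93 and the 27-nt exon of Trappc9 from 31.5 ± 1.76 (SD, n = 3) to 28.75. Mast2 and Ergic3 lay within their DMSO ranges.

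A longer exon of Mef2d that is not the one of the reporter, the 138-nt exon at chr3:87961956-87962093 (mm9), had PSI values of 62.00, 63.36 and 63.73 in DMSO and 50.10 with JFD00822, over 361 reads, and was called lower. The 45-nt exon of Asph, which encodes an aspartate hydroxylase of the endoplasmic reticulum, had 70.79, 56.48 and 57.45 against 48.96 and was called lower, but without DMSO A its change was -8.01 points and the call was lost. The other exons of these genes with DMSO inclusion between 5 and 97 PSI, in Asph, Mast2, Mgrn1 and Zdhhc20, differed by -8.76 to 4.91 points and were not called.

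With AW00693, another compound classed as a microexon inhibitor and also used at 5 µM, 117 of 588 microexons were called lower (19.9%) and 618 of 56987 cassette exons (1.08%). With SPB00858, used at 20 µM, the counts were 22 of 605 microexons (3.64%) and 333 of 57034 cassette exons (0.584%). The 3 compounds share their DMSO libraries and each had 1 library, so the differences between them were not tested. For the Mef2d microexon the PSI was 83.99 with JFD00822, 70.03 with AW00693 and 83.02 with SPB00858. For the Eif4g1 microexon it was 37.72, 15.44 and 34.17, and for the 2410002O22Rik microexon 39.20, 51.26 and 42.96, in the same order.

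The cassette exons with lower inclusion came from 557 genes, of which 497 had 1 such exon, 50 had 2 and 10 had 3 or more. Most were exons that DMSO cells included nearly always. Their median PSI was 93.03 in DMSO and 77.02 with JFD00822, the median change was -13.46 points, and 58.8% had a DMSO mean of 90 PSI or more, against 92.4% of all cassette exons tested. A change of 20 points or more was seen for 106 of the 629. Of all 54370 cassette exons tested with 3 DMSO values, called or not, 22.4% lay below the DMSO range with JFD00822 and 4.31% above it.

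The shift was seen over the whole distribution of changes and not only in poorly covered exons. Among cassette exons with 100 or more reads in the library concerned, 357 of 47741 were called lower with JFD00822 (0.748%), against 0.208%, 0.200% and 0.220% in DMSO A, B and C. Regardless of the posterior, 9.89% of these exons were 2 or more points lower and 2.84% were 2 or more points higher with JFD00822. In the DMSO comparisons 4.62% to 4.76% were lower and 3.98% to 4.54% higher by that amount. The mean change over all cassette exons tested was -0.465 points with JFD00822 and between -0.002 and 0.001 points for the DMSO libraries.

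**Figure D3:**
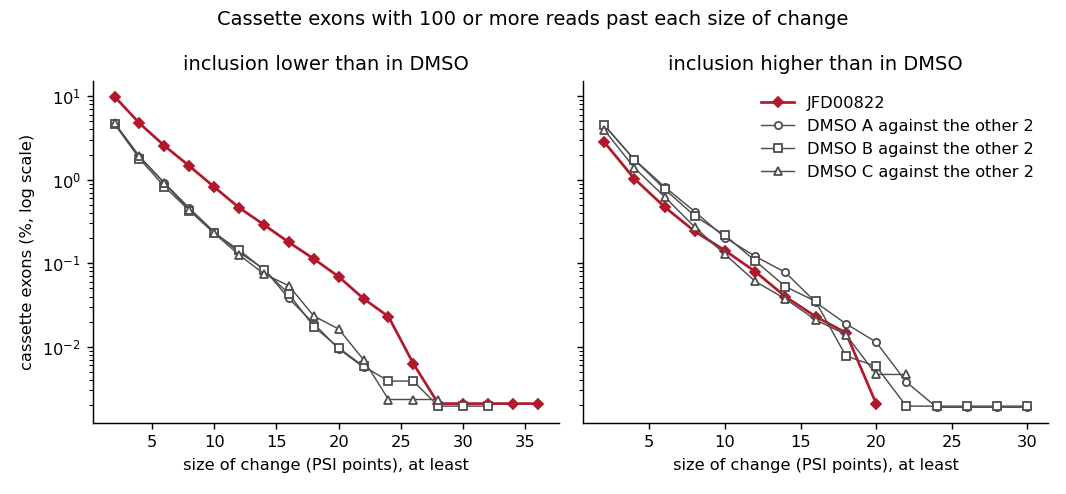
Percentage of cassette exons with 100 or more reads whose PSI was lower (left) or higher (right) than the mean of the DMSO libraries compared, by at least the change on the x axis in PSI points; the y axis is a log scale. On the left the JFD00822 line lies above the DMSO lines at 2 points (9.89% against 4.62% to 4.76%), at 10 points (0.819% against 0.229% to 0.237%) and at 20 points (0.0691%), and on the right it lies below them at 2 points (2.84%).

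The exons with lower inclusion resembled the exons tested in length (median 114 against 120 nt) and in the share whose length is a multiple of 3 (39.7% against 39.6%). They had somewhat shorter introns on either side, with medians of 1163 and 1132 nt against 1399 and 1304 nt. Of 605 that matched an exon of GENCODE vM21, 89.3% were coding, against 93.5% of the matched exons tested. Their median G+C content was 52.9% against 50.5%, and the share called lower was 0.975%, 0.767%, 1.03% and 1.57% over 4 equal classes of exon G+C from low to high. Over the same classes the shares were 0.280%, 0.373%, 0.280% and 0.439% for DMSO A, 0.417%, 0.266%, 0.216% and 0.433% for DMSO B, and 0.434%, 0.431%, 0.474% and 0.709% for DMSO C, each set against the other 2. Coverage also differed, with a median of 121 reads at the exons called lower and 284 at all exons tested. The part of G+C content and coverage in the calls was not tested. Of 609 exons called lower that had a value in 20 or more of the 34 libraries, 226 (37.1%) had no library with a lower value than JFD00822. Counted in the same way for each DMSO library, the share was 18.8%, 18.2% and 38.2% of the exons called lower in DMSO A, B and C.

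The largest change among exons with 3 DMSO values was in Tpcn2, a cation channel of lysosomes. Its 50-nt exon at chr7:152445994-152446043 (mm9) had PSI values of 54.41, 61.83 and 89.31 in DMSO and 17.38 with JFD00822, over 37 reads. The DMSO values were widely spread, but the JFD00822 value was below all of them. In Sgsm2, a regulator of Rab GTPases, the 161-nt exon at chr11:74678863-74679023 (mm9) had 84.46, 97.42 and 86.49 in DMSO and 46.51 with JFD00822. In Jag2, a ligand of Notch receptors, the 114-nt exon at chr12:114153816-114153929 (mm9) had 86.85, 72.10 and 89.31 against 43.51, over 90 reads. The Sgsm2 and Jag2 exons were lower with JFD00822 than in all 30 libraries of other compounds, and their values with AW00693, 93.41 and 82.83, lay within the DMSO ranges.

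The 168-nt exon labelled Klhl17 at chr4:155605656-155605823 (mm9), which in GENCODE vM21 has a counterpart in Plekhn1, had 58.22, 72.76 and 50.65 in DMSO and 24.29 with JFD00822 over 126 reads. It too was lower than in all 30 other libraries. The other exons named by size were those of the zinc finger genes Mzf1 and Zfp446, the ciliary gene Iqce and Cntnap1, which encodes a cell adhesion protein of the axon. Their DMSO means were 82.2 to 92.9 PSI and their JFD00822 values 44.29 to 56.92, over 49 to 75 reads. For Iqce the DMSO values of 86.31, 60.38 and 100 were themselves widely spread.

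Sgsm2 was 1 of the 10 genes with 3 or more exons called lower, and its further exons were looked at after the first was seen. The 110-nt exon at chr11:74666577-74666686 (mm9) had PSI values of 93.59, 96.01 and 96.34 in DMSO and 76.52 with JFD00822, and the 125-nt exon had 89.33, 77.78 and 97.01 against 68.57. The JFD00822 values were below all DMSO values for both. An intron of the same gene, of 394 nt and directly beside the 125-nt exon, was called more retained, from 0.95, 0 and 0 in DMSO to 17.95, over 23 reads. These events belong to 1 gene and share its transcripts, so they do not count as separate replicates.

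Inclusion was higher for 114 cassette exons in 111 genes. The share was below that of every comparison between DMSO libraries (0.303% to 0.351%), but those used fewer control libraries. Against equally few DMSO libraries, more exons were called higher with JFD00822, and the counts overlapped those of the DMSO comparisons. The median PSI of the 114 exons was 49.47 in DMSO and 63.38 with JFD00822. Of the 97 matched to GENCODE vM21, 63.9% were coding. The 36-nt exon of Homer1, a scaffold of the postsynaptic density, had values of 28.84, 21.17 and 27.56 in DMSO and 46.46 with JFD00822. The 60-nt exon of D14Abb1e (Fam208a in GENCODE) had 28.14, 35.61 and 27.13 against 57.65, and the 100-nt exon of Fam169a had 83.53, 69.52 and 76.00 against 100. All 3 were above every library of other compounds with a value. They were among the exons named for the largest rises. How often exons called higher, microexons included, were the highest of all libraries was not counted. The remaining exons named by size, in 2010111I01Rik, 4833442J19Rik, Zfp408, Scai and the nucleoside transporter gene Slc29a3, had changes of 22.3 to 29.9 points, and the Slc29a3 call was lost without DMSO A, without DMSO B and under stricter coverage.

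The introns called more retained were shorter than the introns tested. Their median length was 314 nt against 1278 nt for the introns tested, and 63.4% were under 500 nt against 27.5%. The introns called less retained were also shorter, with a median of 602 nt. Lengths of introns called between DMSO libraries were not compared. For the more retained introns, coverage was also low. Their median retention was 6.27 PSI in DMSO and 22.58 with JFD00822, and their median coverage was 40.9 reads against 131 for all introns tested. With 100 or more reads, 30 of 52055 introns were called higher (0.0576%), against 0.0459%, 0.0232% and 0.0137% in DMSO A, B and C.

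The intron with the largest change was one of 2329 nt in 4833442J19Rik, with 3.23, 7.41 and 2.13 PSI in DMSO and 77.18 with JFD00822, over only 15.5 reads. The 110-nt cassette exon called higher in this gene lies inside that intron. Both named introns of Ndst2, which sulfates heparan sulfate chains, were higher, with 6.25, 2.38 and 14.29 against 56.25 for the intron of 126 nt and 9.33, 5.36 and 18.92 against 46.34 for that of 189 nt. The 373-nt intron directly beside the skipped 168-nt exon of Klhl17 had 28.42, 26.87 and 23.43 in DMSO and 69.90 with JFD00822, above all 30 libraries of other compounds. How often introns called higher were the highest of all libraries was not counted. Introns of 4930412O13Rik, Txndc16, Fam116b and Snapc4, a subunit of the complex that activates small nuclear RNA genes, had changes of 28.7 to 40.5 points, over 25 to 52 reads.

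Skipped exons and retained introns occurred in the same genes in 56 cases. Over the 8314 genes tested for both, 10.4% of the genes with a skipped cassette exon had a more retained intron, against 2.51% of all these genes, and 26.8% of the genes with a more retained intron had a skipped exon, against 6.50% of all. Between DMSO libraries the same shares were 4.60% to 5.05%, against 1.17% to 2.27% of all genes, and 6.49% to 10.1%, against 2.57% to 3.20%. The difference in these shares was not tested, and both kinds of call depend on the reads of the gene. In 22 genes, Sgsm2 and Klhl17 among them, a more retained intron lay directly beside a skipped exon, for 24 introns in all. Such neighbours were not counted between DMSO libraries or over all events tested, so this number has no background.

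Less retained introns numbered 50 and were called over a median of 40.5 reads. They included an 84-nt intron of BC017158, with 27.27, 43.40 and 33.33 PSI in DMSO against 6.38, and a 78-nt intron of the kinase gene Map4k2, with 44.14, 35.88 and 40.54 against 12.20. In Znrf3, a ubiquitin ligase that removes Wnt receptors, a 1046-nt intron had 78.06, 84.38 and 94.12 against 57.25, over 103 reads. Introns of Myef2, Ankrd16, Mif4gd and Fam132a changed by -27.4 to -23.3 points. The Ankrd16 call was lost without DMSO A or C and the Fam132a call without DMSO A.

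Among alternative splice sites, the 5′ splice sites of Plcb3, a phospholipase C, had the largest change with a small DMSO spread. The longer form, with 162 extra bases, was used at 50.58, 55.97 and 62.23 PSI in DMSO and 11.55 with JFD00822, over 124 reads. At a 3′ splice site of Ccdc106 the shorter form had 70.22, 77.14 and 70.00 against 33.80. At a 5′ splice site of Als2cr4 the shorter form had 100, 83.85 and 93.55 against 54.09. The larger change at Mbtd1, from a mean of 61.5 to 7.93, came with DMSO values of 20.98, 66.04 and 97.37, a spread of the same order as the change.

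A second test asked whether these differences exceeded the spread between replicate libraries. limma was fitted to the logit of PSI over all 34 libraries, where the spread comes from DMSO and 4 compounds with 2 libraries each and the JFD00822 library is assumed to vary like them. At an adjusted p under 0.05 and a change of 10 points or more, it called 27 cassette exons lower and 5 higher, 1 splice site event, and no microexon or intron. At an unadjusted p under 0.05 there were 215 cassette exons lower and 44 higher, 8 microexons lower and 5 higher, 139 splice site events, and 215 introns higher and 52 lower.

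None of the 8 cassette exons named above for the largest falls passed this test (adjusted p = 0.3401 to 1), and 3 of them had an unadjusted p under 0.05. Of the 27 exons called lower by it, 25 were at 100 PSI in every DMSO library with a value, where the logit is set by the pseudocount of 0.5 reads and the depth, and not by a measured spread. Of the 32 cassette exons called, 7 had values in 2 DMSO libraries only. An 87-nt exon of Ift172, a ciliary transport protein, had 100 PSI in all 3 DMSO libraries and 84.43 with JFD00822, over 57 reads (limma, adjusted p = 0.0204). An 84-nt exon of Mphosph8, a reader of methylated histone H3, had 100 in all 3 and 80.34 (limma, adjusted p = 0.0204). The 94-nt exon of Mphosph9 had 98.35, 96.85 and 97.01 against 76.92 (limma, adjusted p = 0.0285), and the 108-nt exon of Pitpnm1, a phosphatidylinositol transfer protein, 98.79, 100 and 100 against 74.55 (limma, adjusted p = 0.034). The Fam169a exon described above passed in the upward direction (limma, adjusted p = 0.0215). These 4 exons with lower inclusion were chosen from the 27 after their values were seen. The splice site event was in Ppp1cb, a catalytic subunit of protein phosphatase 1, where the form with 3 extra bases at a 5′ splice site had 99.90, 100 and 100 in DMSO and 87.80 with JFD00822, over 754 reads (limma, adjusted p = 0.0177).

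Gene expression differed little between JFD00822 and DMSO. Of 9627 genes above 5 RPKM in either condition, 100 were over 2-fold higher (1.04%) and 40 over 2-fold lower (0.415%), on the scale of log2(RPKM + 0.5) with 1 authors' value per condition and therefore no test. Of these, 68 and 37 were predicted genes, clones or small RNAs. The total of 140 placed JFD00822 24th of 27 compounds, whose totals ran from 67 to 3740 with a median of 321. The median log2 ratio over the 9627 genes was -0.12, and the ratios below should be read against that value.

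Junction reads gave a value for each library. Of 10689 genes tested by limma on log2 junction CPM (a gene's junction reads scaled to the junction reads of the library), 253 were higher with JFD00822 (2.37%) and 36 lower (0.337%) at an adjusted p under 0.05, and 146 and 3 of these were also past 2-fold. Here the median log2 difference was 0.04. Without 1 of the DMSO libraries the counts were 158 to 207 higher and 7 to 15 lower. With median-ratio size factors they were 204 and 63, and in a fit of the DMSO and JFD00822 libraries alone 754 and 345. Of the 12 genes higher by RPKM that could be tested on junction reads, 11 were also called higher there, while neither of the 2 genes lower by RPKM was called lower.

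The 8 genes that rose with the smallest p were Stmn4, Mcam, Anxa2, Txnip, Sgk1, Plat, Pdlim3 and Padi3. Stmn4, a neuronal stathmin that binds tubulin, had 21.6, 22.8 and 22.5 junction CPM in DMSO A, B and C and 71.4 with JFD00822, a log2 difference of 1.68 ± 0.128 (SE; limma, adjusted p = 8.586e-05). Its RPKM was 12.21 in DMSO and 38.85 with JFD00822, against 8.45 with AW00693 and 15.99 with SPB00858. Mcam, a cell adhesion molecule, rose from 47.3, 48.5 and 48.1 to 111 CPM (log2 difference 1.21 ± 0.0975, SE; limma, adjusted p = 8.586e-05). Anxa2, a membrane-binding annexin, rose from 36.9, 39.9 and 37.1 to 93.7. In each of these genes the DMSO values were close together and the JFD00822 value stood far above them.

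Txnip, an inhibitor of thioredoxin, rose from 19.2, 17.1 and 20.99 to 44.97 junction CPM. The kinase gene Sgk1 rose from 47.4, 50.2 and 52.2 to 93.9, and Plat, tissue plasminogen activator, from 36.6, 36.5 and 36.7 to 77.8. Pdlim3 and Padi3 rose by 1.06 and 1.39 on the log2 scale. For Sgk1 the library of AW00693 held 599 CPM, and JFD00822 came 12th of the 27 compounds for this gene.

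The 8 genes that fell with the smallest p were Scd2, Tubb5, Lars, Idh1, Srebf1, Uhrf1, Pxmp3 and Synpo2. Scd2, a stearoyl-CoA desaturase, had 1062, 1124 and 1128 junction CPM in DMSO and 626 with JFD00822, a log2 difference of -0.82 ± 0.0974 (SE; limma, adjusted p = 0.001501). Srebf1, the transcription factor that drives fatty acid synthesis, went from 369, 360 and 333 to 241 (limma, adjusted p = 0.01997). Its adjusted p was 0.05121 without DMSO B. Lars, leucyl-tRNA synthetase, Idh1, isocitrate dehydrogenase, and Uhrf1, which maintains DNA methylation, fell by 0.47, 0.48 and 0.43 on the log2 scale, and Uhrf1 was not called without DMSO B (adjusted p = 0.05337). Pxmp3 and Synpo2 were lower by 0.76 and 0.94.

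By RPKM alone, the named genes past 2-fold in the downward direction were Xrcc3, of homologous recombination (6.26 to 2.09 RPKM), the noncoding Snhg7 (32.11 to 14.42) and Tpbgl (12 to 5.54). Junction reads did not bear out a fall of Snhg7, whose log2 difference there was 0.57 (limma, adjusted p = 0.3033), and gave -0.58 for Xrcc3 (limma, adjusted p = 0.3116).

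**Figure D4:**
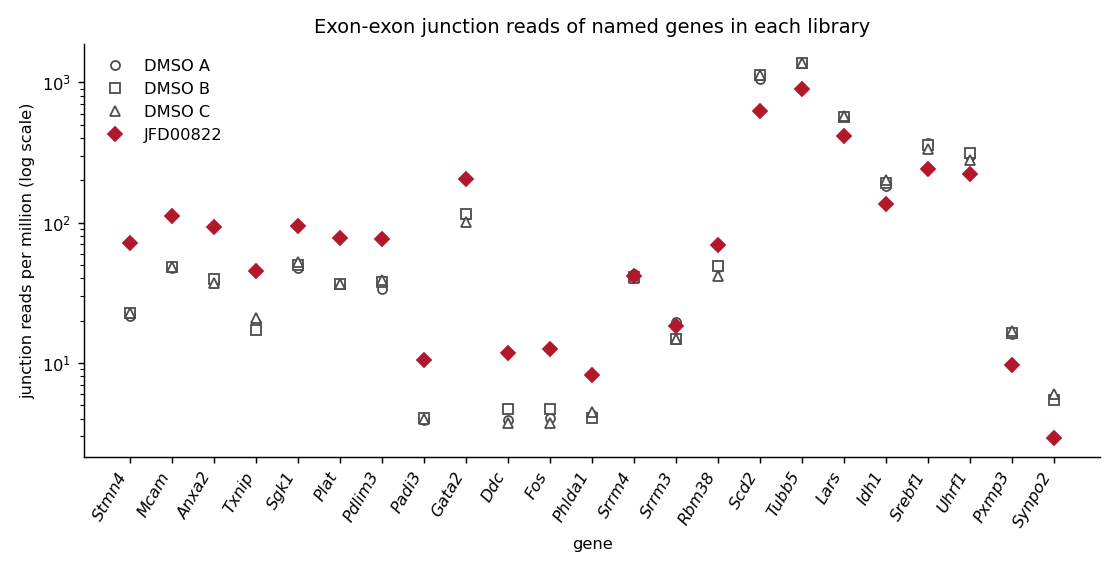
Exon-exon junction CPM (log scale) of the genes named for their junction reads, in DMSO A, B and C (open symbols) and the JFD00822 library (filled diamonds). The JFD00822 values lie above all DMSO values from Stmn4 (71.4) to Phlda1, within them for Srrm4 (41.8) and Srrm3, above them for Rbm38 (68.9), and below them from Scd2 (626) to Synpo2.

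The genes with called splicing events changed little in expression. Of 542 genes with a skipped cassette exon that could be tested on junction reads, 4 were called higher (0.738%) and none lower by limma, at a median log2 difference of 0.02, against 2.37% and 0.337% of all genes (46 higher and 25 lower at an unadjusted p under 0.05). The 4 were Mcam, Arhgef10, Calcoco1 and Tgfbi. Of 224 genes with a more retained intron, 2 were called higher, Esyt1 and the clock gene Per1, and none lower (11 and 22 at an unadjusted p under 0.05). None of the 17 genes with a microexon called lower was called by limma in either direction (2 higher at an unadjusted p under 0.05).

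Srrm4 and Srrm3, the activators of neural microexons, differed on junction reads by less than their standard errors, and most other regulators of neural exons were not called. Srrm4 had 43.3, 40.8 and 40.6 junction CPM in DMSO and 41.8 with JFD00822, a log2 difference of 0.01 ± 0.195 (SE; limma, adjusted p = 0.9926). Srrm3, which acts on the same microexons, had 19.5, 14.7 and 14.9 against 18.4. By RPKM, Srrm4 was at 10.42 in DMSO and 8.22 with JFD00822, a log2 ratio of -0.32. Srrm3 was at 18.49 and 20.53 RPKM, a log2 ratio of 0.15. Of 27 genes of the list of neural splicing regulators tested on junction reads, 1 was called higher and none lower (2 and 3 at an unadjusted p under 0.05). This was Rbm38, an RNA-binding regulator of splicing and mRNA stability, with 47.9, 49.1 and 41.8 in DMSO and 68.9 with JFD00822 (limma, adjusted p = 0.0346), which was lost under 5 of the alternatives, leaving out any 1 DMSO library among them (adjusted p = 0.05447 to 0.08303). The RPKM of Rbm38 was 40.62 in DMSO and 46.03 with JFD00822, a log2 ratio of 0.18. With AW00693 Rbm38 stood at 190 CPM. Nova1, which regulates neuronal exons, had 31.98, 29.4 and 30.5 CPM in DMSO and 20.9 with JFD00822 and was not called (log2 difference -0.55; limma, adjusted p = 0.06302, 0.005028 to 0.1358 under the alternatives). None of the 27 regulators tested by RPKM was past 2-fold, and their median log2 ratio was -0.13, with the lowest values for Rbfox1 (-0.73) and Nova2 (-0.69), whose junction CPM differed by -0.11 and -0.23 and were not called. Of 30 genes in the list of core spliceosome components and their kinases, 2 were called higher on junction reads, against 2.37% of all genes. These were Clk1 and Clk4, kinases of SR proteins and not spliceosome components (log2 differences 0.55 and 0.45). None was called lower (4 higher and 0 lower at an unadjusted p under 0.05). Clk1 was not called without DMSO C, nor Clk4 without any 1 of the 3 DMSO libraries.

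Tubulin genes had the lowest median of the lists. Over the 14 genes tested by RPKM the median log2 ratio was -0.54, against -0.12 for all genes, and 10 of the 14 were below the median of all genes, although none was past 2-fold. The authors' merged DMSO value of Tuba1b was 1457 RPKM and the JFD00822 value 900, and for Tubb5 the values were 769 and 454, for Tubb4b 472 and 304 and for Tubb3 396 and 252. Tuba4a, Tuba8, Tubd1 and Tube1, expressed at 5.58 to 14.24 RPKM in DMSO, had log2 ratios between -0.04 and 0.12. On junction reads 1 of 10 tubulin genes was called lower, Tubb5, with 1375, 1381 and 1375 CPM in DMSO and 895 with JFD00822 (limma, adjusted p = 0.002588). Tuba1a and Tubb3 had log2 differences of -0.41 and -0.52 there and were not called (limma, adjusted p = 0.1091 and 0.1067). Reads of near-identical tubulin genes may be shared between them, so single members are less certain than the group. The median for this list was -0.22 with AW00693 and 0.04 with SPB00858, and JFD00822 ranked 5th from the lowest of the 27 compounds.

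Of 23 sterol and fatty acid synthesis genes tested on junction reads, 3 were called lower, Scd2, Srebf1 and Dhcr7, the last step of cholesterol synthesis, and none higher (10 and 0 at an unadjusted p under 0.05), against 0.337% of all genes called lower. By RPKM 21 of 25 were below the median of all genes. The integrated stress response list, genes downstream of Atf4, held 4 genes called lower and 2 called higher of 17 (6 and 2 at an unadjusted p under 0.05). The 4 were Asns, Psat1, Chac1 and the amino acid transporter gene Slc7a5, with log2 differences of -0.32 to -0.59, and the 2 were the transcription factor genes Ddit3 (0.84) and Atf3 (1.39). The direction was thus split within this list, whose median by RPKM was -0.36. Of these 9 calls Scd2 and Atf3 were kept under every alternative, Srebf1 and Dhcr7 were lost without DMSO B, Dhcr7, Ddit3 and Psat1 without DMSO C, Psat1 without DMSO B, and Asns, Chac1 and Slc7a5 without any 1 of the 3.

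Among 20 MAPK feedback and immediate early genes, 4 were called higher on junction reads and none lower (8 and 0 at an unadjusted p under 0.05), against 2.37% and 0.337% of all genes. Fos had 4.06, 4.67 and 3.75 CPM in DMSO and 12.6 with JFD00822 (limma, adjusted p = 0.002684), Phlda1 had 4.24, 4.05 and 4.45 against 8.13 (limma, adjusted p = 0.02595), and Dusp4 and Ier3 had log2 differences of 0.60 and 0.90. The Phlda1 call was lost without DMSO A or B (adjusted p = 0.05036 and 0.06167). The Ier3 call was lost without any 1 of the DMSO libraries. Dusp6, Egr1 and Spry4 were among the 16 not called.

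Of 12 neuroblast markers on junction reads, 3 were called higher and none lower (4 and 1 at an unadjusted p under 0.05), against 2.37% of all genes called higher. By RPKM the list had a median log2 ratio of -0.18, with 8 of 13 genes below the median of all genes and Tubb3 at -0.65. Gata2, a transcription factor of sympathetic neurons, had 113, 114 and 100 CPM in DMSO and 203 with JFD00822 (limma, adjusted p = 0.002755), and 47.92 against 119.26 RPKM. Ddc, which makes dopamine, had 3.92, 4.70 and 3.70 against 11.8 (limma, adjusted p = 0.00452), and Gata3 differed by 0.65 on the log2 scale. With AW00693 the values were 219 for Gata2 and 24.3 for Ddc, and with SPB00858 131 and 5.43. The Gata3 call was lost without DMSO B or C. Of the 16 markers of other cell types, 5 could be tested on junction reads and 2 were called higher, Pecam1 of endothelial cells (1.67, 2.14 and 1.75 against 4.497 CPM) and Col1a1 of fibroblasts (0.049, 0.112 and 0.3 against 1.13). The Col1a1 call was lost without DMSO B and without a filter on low counts (limma, adjusted p = 0.05839 to 0.08605). The log2 differences of all 5 were above 0, with a median of 1.25. The summed RPKM of these 16 markers was 4.98 in DMSO and 8.15 with JFD00822, and their part in the other differences was not tested.

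Each of the other lists had 3 calls or fewer, against 2.37% of all genes called higher and 0.337% called lower. Differences between the shares of these short lists and of all genes were not tested. Cdkn1a, the cell cycle inhibitor p21, was the only p53 target called among 15, with 12.5, 12.7 and 11.6 CPM in DMSO and 28.7 with JFD00822 (limma, adjusted p = 0.005296). None of 29 cell cycle and DNA replication genes, 11 pyrimidine synthesis genes, 12 histone deacetylase and reader genes or 5 aryl hydrocarbon receptor genes was called by limma on junction reads (2 higher and 6 lower, 0 and 2, 2 and 1, and 2 and 0 at an unadjusted p under 0.05). The calls in the remaining lists were Sqstm1 and Osgin1 of 14 oxidative stress genes, Adm, Ndrg1 and Kdm3a of 20 hypoxia and glycolysis genes, Herpud1 of 16 chaperone genes, Tfrc of 7 metal response genes, all higher, and Scg2 (higher) and Snap25 (lower) of 17 genes of neuronal differentiation. Of these, Sqstm1 and Adm were kept under every alternative, as was Cdkn1a. Over all lists, 11 of 32 genes called on junction reads were kept under every alternative, and 12, 16 and 16 were lost without DMSO A, B and C.

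**Figure D5:**
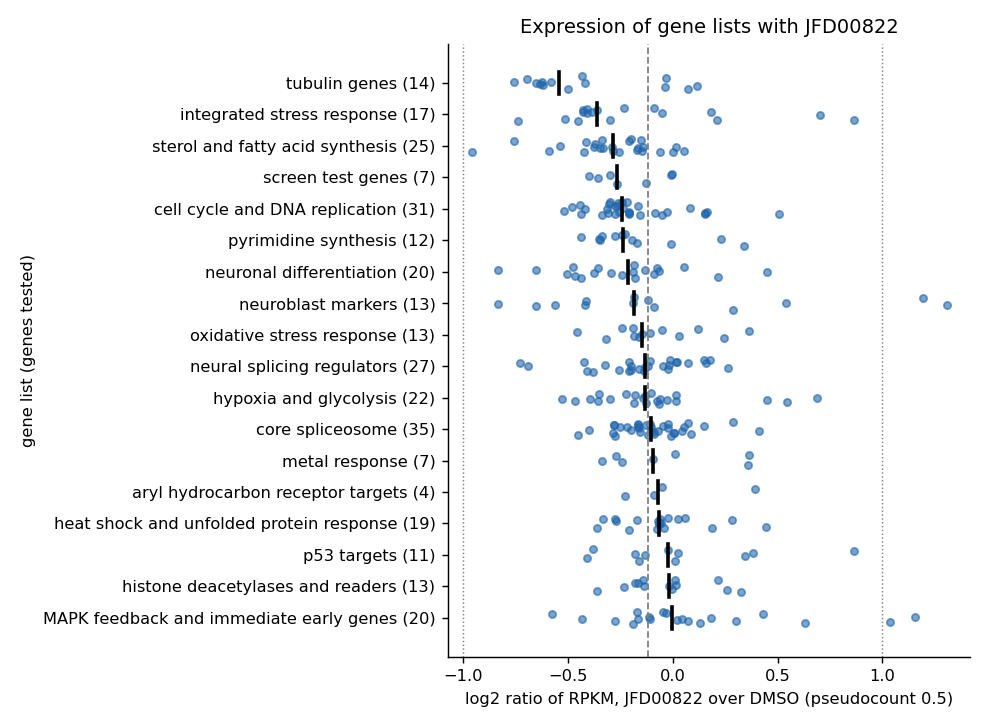
log2 ratio of RPKM (pseudocount 0.5) of JFD00822 over the authors' merged DMSO value for each gene tested, by gene list, with the number of genes tested in parentheses. Points are genes, black bars the median of each list, the dashed line the median of all 9627 genes (-0.12) and dotted lines a 2-fold change. The tubulin genes have the lowest median (-0.54), and 4 points lie beyond 2-fold, which are Gata2, Ddc, Fos and Phlda1.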

How the data were processed

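PolyA RNA libraries were made without strand information (TruSeq RNA v2). The authors deposited a vast-tools 2.1 splicing table (mm9), whose PSI values are a percent with, per event, estimated counts of inclusion and exclusion reads and exon-exon junction reads, and a gene table of RPKM in which the 3 DMSO libraries are merged into 1 value. RPKM was made from Salmon counts, and the same table holds the log2 fold changes, p-values and FDR of the authors' edgeR comparisons, which were not used. Here an event was called at a change of 10 PSI points with a posterior above 0.95 (2000 draws), and limma 3.58.1 (R 4.3.3) with Benjamini-Hochberg adjustment was fitted to logit PSI and to log2 CPM of the exon-exon junction reads summed per gene over annotated introns, in all 34 libraries. RPKM ratios used a pseudocount of 0.5 and a minimum of 5 RPKM. Exon sequences came from GENCODE vM21 transcripts, matched by chromosome, exon length and flanking intron lengths. Named genes and events were the largest changes past each threshold, those with the smallest p, all called microexons and list members past 2-fold. Members and lists were chosen with earlier results of these data known. Scripts were tested on simulated data. The posterior rests on the counting error of each library and on the spread between the DMSO libraries. With 1 JFD00822 library, it holds no spread between treated cultures. A few items are not reported here.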

Additional observations from a re-analysis of the deposited data

How the results depend on the processing

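No paired analysis was possible because the JFD00822 library and the DMSO libraries share only the letter A, which marks no common culture. With a limit of 15 PSI points there were 7 microexons lower and 2 higher, 246 cassette exons lower and 42 higher, 169 splice site events, and 33 introns lower and 143 higher. Leaving out 1 DMSO library gave 21 to 22 microexons lower and 8 to 9 higher, 717 to 738 cassette exons lower and 153 to 184 higher, 461 to 544 splice site events, and 88 to 120 introns lower and 304 to 352 higher. Stricter coverage gave 27 introns lower, and microexons of up to 15 nt gave 6 lower of 317. limma on logit PSI called 0 microexons lower and 0 higher, 27 cassette exons lower and 5 higher, 1 splice site event, and 0 introns lower and 0 higher, with the unadjusted counts given above. A minimum of 1 RPKM gave 159 genes lower and 391 higher, and no minimum 290 and 533. On junction reads, median-ratio size factors gave 63 genes lower (204 higher), a fit of DMSO and JFD00822 alone 345 lower and 754 higher, and leaving out 1 DMSO library 7 to 15 lower and 158 to 207 higher, the fewest lower without DMSO B and the fewest higher without DMSO C. The cause of these differences was not tested. Of the results for single events under the alternatives other than limma, 273 stayed the same and 27 became weaker, and none changed direction. limma called no microexon, no intron and none of the 8 cassette exons named for the largest falls. The limits are 1 treated library, a DMSO spread from 3 libraries, and low read counts for most introns called.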

Other observations

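Histone genes were the largest named group among the genes higher by RPKM, which was noticed after the values were seen. Of 15 replication-type histone genes above 5 RPKM in either condition, 12 were over 2-fold higher with JFD00822, none was over 2-fold lower, and the median log2 ratio was 1.42. A gene could pass this minimum by its JFD00822 value alone, as Hist1h2ap, Hist1h3i and Hist1h1b did. The share and the median are therefore partly set by how the genes were chosen. Hist1h4n and Hist1h4k were above 5 RPKM in DMSO itself. Hist1h2ap, which encodes a histone H2A, was at 2.86 RPKM in the authors' merged DMSO value and 17.96 with JFD00822, Hist1h4n at 11.63 and 40.53, Hist1h3i at 3.61 and 14.72, and the linker histone gene Hist1h1b at 2.97 and 10.33. Hist1h2ai, Hist2h2aa2, Hist1h3g and Hist1h4k had log2 ratios of 1.42 to 2.48. The median for the same 15 genes was 0.39 with AW00693 and 0.22 with SPB00858, and JFD00822 ranked 5th of the 27 compounds. Because JFD00822 values helped to choose these genes, neither the medians nor the rank compare the compounds on equal terms. Most transcripts of such genes have no introns and lack the poly(A) tail by which these libraries were selected, and only Hist1h2bc could be tested on junction reads. It had 36.8, 23.4 and 24.3 junction CPM in DMSO A, B and C and 95.8 with JFD00822, a log2 difference of 1.79 ± 0.244 (SE; limma, adjusted p = 0.003065), and 14.51 and 36.6 RPKM. Histone genes are near-identical to one another, and the counting of single members is uncertain.

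The other genes with the largest RPKM ratios were Cd209c, a lectin of dendritic cells (1.01 RPKM with DMSO and 8.12 with JFD00822), Ccr4, a chemokine receptor (1.12 and 6.79), and Ifitm10 (1.73 and 5.76). None of the 3 passed the minimum for junction reads, so their values rest on 1 RPKM per condition.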
